A study of Mus musculus with 4 samples.

Results

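The LIM homeobox factors are transcription factors that carry a pair of LIM domains, which bind other proteins, in front of a homeodomain, which binds DNA. The group followed here was Lhx1, Lhx2, Lhx3, Lhx4, Lhx5, Lhx6, Lhx8, Lhx9, Isl1 and Isl2. Members were taken by name from the GENCODE vM1 annotation of the mouse genome build mm9, and all 10 were found among its 22367 protein-coding genes. In the embryo they act in combinations that set the identity of neurons, and several also act in the pituitary, gonad, heart or pancreas. Their LIM domains bind the adaptor Ldb1, which joins them into larger complexes. In embryonic stem cells, developmental regulators of this kind are known as genes that are mostly silent but keep trimethylation of lysine 4 on histone H3 (H3K4me3) at their promoters, often beside the repressive mark of the Polycomb group.

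The study measured Jarid1b, the demethylase encoded by Kdm5b that removes methyl groups from this lysine, and H3K4me3 by chromatin immunoprecipitation and sequencing in mouse embryonic stem cells. All cells were of the feeder-independent E14TG2a.4 line, grown with LIF. Of the H3K4me3 libraries, 1 came from cells that received a Jarid1b shRNA (short hairpin RNA) by PLKO.1 lentivirus and 1 from cells labelled LKO Scr, which received the scramble control, and the labels' protocols describe puromycin selection and name no clone. The Jarid1b libraries were 2 from cells labelled E14 ESCs, made with an antibody labelled Jarid1b-DAIN. Reads kept, 1 per strand and 5′ position, numbered 2635705 in the Jarid1b shRNA library and 5158330 in the scramble library. In the Jarid1b libraries they numbered 4336767 and 1602370. Rows left out as repeats of a position were 7.56% in the Jarid1b shRNA library and 31.5% in the scramble library. Since each condition has 1 H3K4me3 library, no difference between conditions was tested against the spread between cultures, and every interval below covers counting error only. No input or IgG library was used here, and none of the files measures RNA or Jarid1b protein, so the extent of the knockdown is unknown. Kdm5b itself had 155 H3K4me3 reads at its promoter in Jarid1b shRNA cells and 153 in scramble cells, a log2 ratio of 0.99 after scaling to depth (95% interval 0.66 to 1.32), which checks neither label.

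A few facts of the libraries bear on the values. Part of the fragments occurred in both Jarid1b libraries: on the plus strand, 16.8% of library 2's positions coincided with a library 1 position, 9.52 times the median share at other offsets. Over 12603 promoters the counts of these libraries differed by about as much as sampling noise gives (chi-square over its degrees of freedom, 0.996). Because of the fragments in common, both files were treated as a single sample, n = 1, and passing in both is no replication. Minus-strand Jarid1b reads lay 1 read length too far to the left in both files. Among markers of the labelled cell type, the pluripotency factor Pou5f1 had 126 promoter H3K4me3 reads in Jarid1b shRNA cells and 401 in scramble cells. After scaling to depth this was a log2 ratio of -0.70 at the gene-level start, not called lower. At its start with the most reads Pou5f1 had a log2 ratio of -1.01 and was called lower. Of 9 stem cell markers, 8 could be compared between conditions at gene-level starts. Zfp42, Nanog, Tdgf1 and Dppa5a, 4 of them, were called lower in Jarid1b shRNA cells, with log2 ratios from -1.43 to -1.12. The summed level of the 9 was 245 RPM (reads per 1000000 reads kept) in Jarid1b shRNA cells, against 326 RPM in scramble cells. Marker promoters of other lineages summed to more in Jarid1b shRNA cells: 31.9 against 13.8 RPM in scramble cells for 6 primitive endoderm genes, 39.5 against 13.96 RPM for 5 trophoblast genes, 50.8 against 18.8 RPM for 6 fibroblast genes and 43.3 against 25.6 RPM for 4 neural genes. Single genes carried much of these sums and not all went the same way: Twist1 gave 34.1 RPM of the fibroblast sum in Jarid1b shRNA cells and 11.05 RPM in scramble cells, and Eomes 23.9 and 5.82 RPM of the trophoblast sum, whereas Neurod1 had 3.41 RPM in Jarid1b shRNA cells and 4.65 RPM in scramble cells. For 5 blood genes the sums were 3.04 RPM in Jarid1b shRNA cells and 3.88 RPM in scramble cells. Among those with 0 reads at the gene-level start in the Jarid1b shRNA library were Esrrb, Col3a1, Elf5 and Hbb-b1. At another annotated start Esrrb had 103 reads in Jarid1b shRNA cells and 291 in scramble cells, a log2 ratio of -0.53. The stem cell sum does not hold these reads. Likewise, the neural sum leaves out a Pax6 start with 45 reads in Jarid1b shRNA cells and 102 in scramble cells (-0.21). At the starts with the most reads, the 4 neural genes had a median log2 ratio of 0.27, with 2 above 0. All promoters compared at such starts had a median of 0.41. Marker promoters thus moved in the same comparison as the LIM homeobox genes, and their part in the results below was not tested.

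The promoter of a gene was first taken as 1 kb on each side of its gene-level transcription start site (TSS), the outermost start of any of its transcripts. The 10 genes have between 1 and 6 annotated starts each, spread over up to 13251 bases, and for Lhx2, Lhx3, Lhx8 and Isl2 most H3K4me3 reads lay at a start well downstream of the gene-level one. To show how such starts differ, the 300 bases from 250 before to 50 after the TSS are printed for Isl2 at the gene-level start and at the start with the most H3K4me3 reads, and for Lhx4 and Isl1, the members with the highest H3K4me3 in the scramble library. Sequences were read from mm9, and capitals mark each CG, the dinucleotide that is dense in CpG islands.
Isl2, gene-level, chr9:55386229-55386528, plus strand: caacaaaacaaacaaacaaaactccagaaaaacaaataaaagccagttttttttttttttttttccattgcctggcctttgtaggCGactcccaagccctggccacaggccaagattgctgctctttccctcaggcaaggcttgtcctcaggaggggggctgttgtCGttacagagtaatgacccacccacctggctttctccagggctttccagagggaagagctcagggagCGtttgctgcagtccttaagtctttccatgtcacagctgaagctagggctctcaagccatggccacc
Isl2, most H3K4me3 reads, chr9:55388705-55389004, plus strand: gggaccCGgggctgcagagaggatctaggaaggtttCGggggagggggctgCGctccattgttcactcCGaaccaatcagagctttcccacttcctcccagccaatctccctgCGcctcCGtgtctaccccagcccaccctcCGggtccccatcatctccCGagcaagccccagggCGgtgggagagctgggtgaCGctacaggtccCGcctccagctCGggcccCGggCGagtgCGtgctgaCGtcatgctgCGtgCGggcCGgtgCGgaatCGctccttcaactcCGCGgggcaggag
Lhx4, gene-level, chr1:157589108-157589407, minus strand: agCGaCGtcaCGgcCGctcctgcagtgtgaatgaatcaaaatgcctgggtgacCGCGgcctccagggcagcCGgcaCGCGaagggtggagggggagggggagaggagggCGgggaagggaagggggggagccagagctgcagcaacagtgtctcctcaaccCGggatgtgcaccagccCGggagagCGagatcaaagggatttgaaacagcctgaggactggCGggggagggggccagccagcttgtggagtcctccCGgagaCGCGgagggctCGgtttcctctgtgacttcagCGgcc
Isl1, gene-level, chr13:117099847-117100146, minus strand: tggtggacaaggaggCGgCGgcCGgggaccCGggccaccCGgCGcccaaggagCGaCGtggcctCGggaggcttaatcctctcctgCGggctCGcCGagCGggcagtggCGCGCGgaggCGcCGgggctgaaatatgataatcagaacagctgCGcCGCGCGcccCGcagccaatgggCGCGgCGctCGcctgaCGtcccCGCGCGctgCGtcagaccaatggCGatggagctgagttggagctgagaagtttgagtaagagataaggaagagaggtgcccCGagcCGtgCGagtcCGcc
The gene-level promoter of Isl2 held 3 CG and the one that carries H3K4me3 held 23. Of the pairs not printed, Lhx3 had 13 and 21 and Lhx8 had 8 and 33 in the same order. Lhx2 went the other way with 34 and 29. Lhx4 and Isl1 held 19 and 37 CG. Over all 22367 gene-level promoters of this length the median was 11 CG, 95.1% held at least 1 and 30.1% held over 20. In the 2 kb windows, the members' GC content ranged from 48.0% to 62.9% with a median of 57.1%, against a median of 51.2% over all promoters. Their ratio of observed to expected CG had a median of 0.618, against 0.468. The letters GCACA on either strand, a core sequence reported to be bound by the ARID domain of human JARID1B, were in 9 of the members' 10 windows and in 98.2% of all windows.

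At gene-level starts, H3K4me3 was higher in Jarid1b shRNA cells at 6 of the 7 LIM homeobox promoters that could be compared: Lhx1, Lhx2, Lhx4, Lhx5, Lhx6 and Lhx9. Isl1 had a ratio just under 2-fold, and Lhx3, Lhx8 and Isl2 had too few reads. No member was lower. For a comparison, a promoter had to be enriched in at least 1 of these libraries and to hold 20 or more reads in total. It was called higher when the ratio of RPM was at least 2-fold with an interval above 0 on the log2 scale. Of all 13273 promoters compared, 24.0% were called higher by this rule and 2.37% lower. Lhx2 and Lhx9 passed the enrichment filter through the Jarid1b shRNA library alone, as did 204 of the 13273. That filter favours a higher call, so these calls are partly fixed by it. Lhx1, Lhx4, Lhx5 and Lhx6 were enriched in both H3K4me3 libraries. Of the 13069 compared promoters enriched in scramble cells, 3022 were called higher. The members' median log2 ratio was 2.06, with a range of 0.97 to 3.45, against a median of 0.41 over all promoters compared. The whole distribution is thus shifted. Scaled so that the median of all promoters is 0, the members' ratios ranged from 0.56 to 3.04 with a median of 1.65, the same 6 were called higher, and the background fell to 12.0%. Under that scaling 1594 promoters of the genome were higher and 1193 lower, against 3184 and 315 with scaling to total reads. Level and GC content also go with the ratio in these libraries. Of promoters within the members' range of mean level, 31.6% were called higher, and of those within their range of GC content, 34.2%. Among the 1977 compared promoters whose mean H3K4me3 level and GC content both lay within the range of the compared members, 52.8% were called higher and the median log2 ratio was 1.04.

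**Figure D1:**
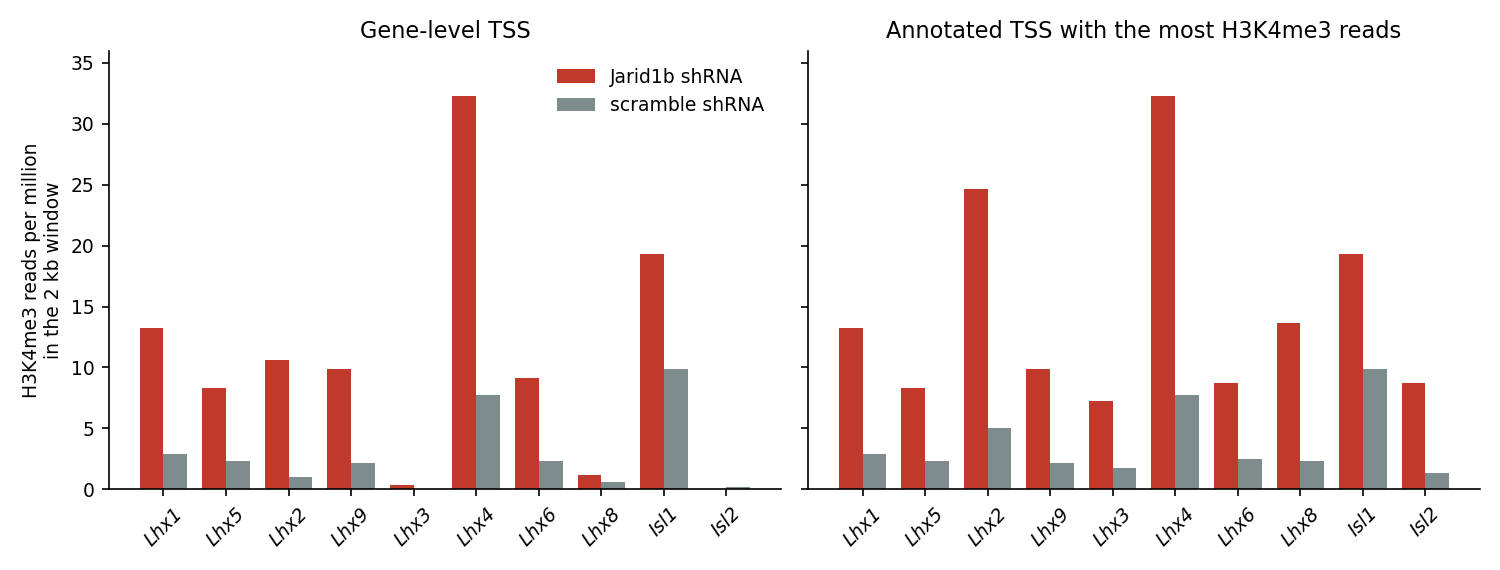
H3K4me3 RPM in the 2 kb window of each LIM homeobox gene in Jarid1b shRNA cells (red) and scramble cells (grey), at the gene-level TSS (left) and at the annotated TSS with the most H3K4me3 reads (right). Bars are single libraries, so there is no error bar, and at the right-hand starts all 10 genes have the taller bar in Jarid1b shRNA cells, from 7.21 RPM at Lhx3 to 32.2 RPM at Lhx4.

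The members' H3K4me3 levels lay below those of all promoters in scramble cells and equalled them in Jarid1b shRNA cells, by their medians. The members' median was 9.49 RPM in Jarid1b shRNA cells and 2.23 RPM in scramble cells. All promoters had medians of 9.49 and 6.01 RPM, and the 13429 promoters enriched in scramble cells had medians of 23.5 and 17.6 RPM, in the same order. Enrichment was called by a one-sided Poisson test against the genome rate or, where higher, the local rate, with Benjamini-Hochberg adjustment over all genes at 0.05. By this test 7 of 10 members were enriched in the Jarid1b shRNA library and 5 of 10 in the scramble library. The background was 59.9% and 60.0% of all promoters. Lhx2 and Lhx9 were enriched in the Jarid1b shRNA library alone, and Lhx3, Lhx8 and Isl2 in neither. At Lhx9 the local rate set the expected reads in both libraries, and it takes in the promoter peak of the neighbouring gene 2310009B15Rik. In the 10 kb upstream, that peak's 500 bases held 45 of 82 scramble reads and 32 of 55 Jarid1b shRNA reads. With the genome rate alone, 6 members were enriched in the scramble library and 7 in the Jarid1b shRNA library. The missing scramble call at Lhx9 is thus no evidence that the mark was absent there. Of all 22367 promoters, 420 were enriched in the Jarid1b shRNA library alone and 8518 in neither. The libraries differ in depth, and the difference between these calls was not tested.

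Jarid1b was enriched in both of its libraries at 6 of 10 members, Lhx2, Lhx4, Lhx5, Lhx6, Lhx8 and Isl1, against 7.97% of all promoters. Lhx1 and Lhx9 passed in library 1 alone. The members' median enrichment over expected reads was 2.52-fold in library 1 and 3.08-fold in library 2, against 1.47-fold and 1.54-fold over all promoters. With the expected reads taken from background bins of the same GC content, 3 of 10 members were above the threshold, Lhx4, Lhx5 and Lhx8, against 0.908% of all promoters. With minus-strand reads moved 1 read length to the right, the count at the gene-level starts was again 6, against 7.94% of all promoters.

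**Figure D2:**
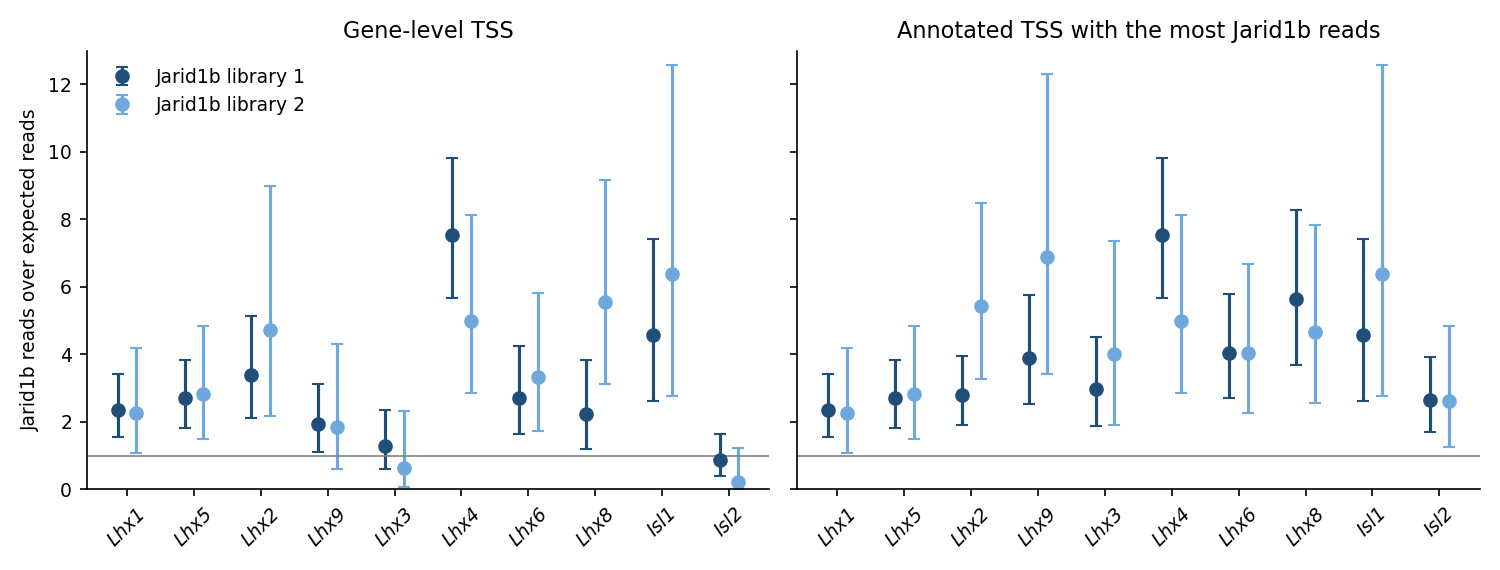
Jarid1b reads in the 2 kb window over the expected reads (genome rate or, where higher, local rate) for each LIM homeobox gene in Jarid1b library 1 (dark blue) and library 2 (light blue), at the gene-level TSS (left) and at the annotated TSS with the most Jarid1b reads (right). Points are single libraries with 95% Poisson intervals, and the grey line marks the expected level of 1. At the gene-level starts Lhx4 has the highest fold of library 1 at 7.53, and Isl2 lies at 0.857 and 0.217 on the left but at 2.64 and 2.63 on the right.

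The values follow by pairs of close relatives, the known subfamilies of these proteins. Within the 5 pairs the longest coding sequences were identical at 59.4% to 70.02% of aligned bases, against 42.1% to 51.3% for the 40 other pairings of members.

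Lhx1 and Lhx5 act early in the embryo and in spinal and forebrain neurons, and Lhx1 is needed for the head and the kidney. Lhx1 (chr11:84331479-84338923, minus strand) had 35 H3K4me3 reads, or 13.3 RPM, in Jarid1b shRNA cells and 15 reads, or 2.91 RPM, in scramble cells. Lhx5 (chr5:120881895-120891466, plus strand) had 22 reads, or 8.35 RPM, in Jarid1b shRNA cells and 12 reads, or 2.33 RPM, in scramble cells. Both were high in Jarid1b shRNA cells, with log2 ratios of 2.19 at Lhx1 (95% interval 1.28 to 3.17) and 1.84 at Lhx5 (0.77 to 2.99), and the intervals overlap. Jarid1b had 27 and 10 reads at Lhx1 in libraries 1 and 2, which is 2.35-fold (95% Poisson interval 1.55 to 3.42) and 2.27-fold (1.09 to 4.18) over expected. It missed the threshold in library 2 (exact one-sided Poisson test, adjusted p = 0.0926). At Lhx5 Jarid1b had 31 and 13 reads, 2.70-fold (1.83 to 3.83) and 2.83-fold (1.505 to 4.83). Both loci had high Jarid1b around the window as well, which raises the local rate the window is set against. Over the gene body and 2 kb before it, Jarid1b was 5.62-fold and 6.42-fold over the genome rate at Lhx1 and 4.59-fold and 5.52-fold at Lhx5. This is the 98.4 to 99.2 percentile of the 18079 genes with at least 20 H3K4me3 reads over the locus.

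Lhx2, needed for the eye and the cerebral cortex, and Lhx9, needed for the gonad, form the next pair. Lhx2 (chr2:38194801-38225253, plus strand) had 28 reads, or 10.6 RPM, at its gene-level start in Jarid1b shRNA cells and 5 reads, or 0.969 RPM, in scramble cells, the highest log2 ratio of the 7 members compared, 3.45 (2.06 to 5.18). A coding start 12027 bases downstream, in an intron of the longer transcript, had more: 65 reads, or 24.7 RPM, in Jarid1b shRNA cells and 26 reads, or 5.04 RPM, in scramble cells, with a log2 ratio of 2.29 (1.61 to 3.01). Both Lhx2 starts were thus called higher. The upstream one had the wider interval and passed the enrichment filter through the Jarid1b shRNA library alone. Lhx9 (chr1:140721763-140745153, minus strand) had 26 reads, or 9.86 RPM, in Jarid1b shRNA cells and 11 reads, or 2.13 RPM, in scramble cells, a log2 ratio of 2.21 (1.14 to 3.37). Jarid1b at the gene-level starts had 22 and 9 reads at Lhx2 (3.38-fold, 2.12 to 5.12, and 4.74-fold, 2.17 to 8.99). It had 16 and 5 reads at Lhx9 (1.93-fold, 1.10 to 3.13, and 1.85-fold, 0.601 to 4.32), short of the threshold in library 2. In Lhx9 the summed H3K4me3 reads and the Jarid1b reads were highest at different starts. The start with the most Jarid1b reads lay 6147 bases downstream, with 25 and 11 reads (3.91-fold and 6.88-fold), and H3K4me3 there was 8 reads in Jarid1b shRNA cells and 9 in scramble cells, a log2 ratio of 0.80 (-0.78 to 2.34). That ratio rests on 17 reads, so its interval spans both directions. Between the gene-level start and this one, scramble reads differed little, 11 and 9, and Jarid1b shRNA reads more, 26 and 8.

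Lhx3 and Lhx4 direct the growth of the anterior pituitary and the identity of spinal motor neurons. Lhx4 (chr1:157548827-157589157, minus strand) had 85 reads, or 32.2 RPM, in Jarid1b shRNA cells and 40 reads, or 7.75 RPM, in scramble cells, the highest level of the 10 genes in the Jarid1b shRNA library. Its log2 ratio of 2.06 had the narrowest interval of the called members (1.498 to 2.64). Jarid1b had 55 and 16 reads, 7.53-fold (5.68 to 9.81) and 5.0-fold (2.86 to 8.12), which places Lhx4 at percentile 99.9 of all promoters in library 1 and 95.9 in library 2. Lhx4 alone also passed a stricter adjusted p of 0.001 in both Jarid1b libraries. Lhx3 (chr2:26055732-26063769, minus strand) had 1 read in Jarid1b shRNA cells and 0 in scramble cells at the gene-level start, where 0 reads allow up to 0.582 RPM. Its reads lay inside the gene. At the start 5383 bases downstream, that of a noncoding transcript, there were 19 reads, or 7.21 RPM, in Jarid1b shRNA cells and 9 reads, or 1.74 RPM, in scramble cells, a log2 ratio of 2.05 (0.83 to 3.37). At the coding start 1674 bases downstream there were 10 reads in Jarid1b shRNA cells and 3 in scramble cells. Jarid1b followed the same shift: 10 and 2 reads at the gene-level start (1.28-fold and 0.645-fold), and 22 and 10 reads at 5383 bases (2.97-fold and 4.00-fold).

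Lhx6 is made in the precursors of cortical interneurons and Lhx8 in those of forebrain cholinergic neurons. Lhx6 (chr2:35937470-35960928, minus strand) had 24 reads, or 9.11 RPM, in Jarid1b shRNA cells and 12 reads, or 2.33 RPM, in scramble cells, a log2 ratio of 1.97 (0.91 to 3.10). Jarid1b had 19 and 12 reads, 2.71-fold (1.63 to 4.24) and 3.33-fold (1.72 to 5.82). Lhx6 therefore had calls for both at its gene-level start. Lhx8 (chr3:153969260-153993615, minus strand) had 3 reads in each H3K4me3 library there, while Jarid1b had 13 and 15 reads, 2.24-fold (1.19 to 3.83) and 5.56-fold (3.11 to 9.16). It was the single member with Jarid1b called and no H3K4me3 call in the same window. A coding start 2017 bases downstream carried 36 reads, or 13.7 RPM, in Jarid1b shRNA cells and 12 reads, or 2.33 RPM, in scramble cells, a log2 ratio of 2.55 (1.58 to 3.63). Jarid1b at that start had 26 and 14 reads, 5.65-fold and 4.67-fold. H3K4me3 and Jarid1b reads were thus both more numerous over the libraries there than at the gene-level start.

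Isl1 is needed for motor neurons, cardiac progenitors and pancreatic islets, and Isl2 acts in motor neurons and retinal ganglion cells. Isl1 (chr13:117088478-117099896, minus strand) had 51 reads in each H3K4me3 library, or 19.4 RPM in Jarid1b shRNA cells and 9.89 RPM in scramble cells. It had the highest scramble level and the lowest ratio of the compared members, 0.97 (0.38 to 1.56). Its interval lies below that of Lhx2 at the gene-level start and overlaps those of the other 5. It passed 2-fold when every deposited row was counted (log2 ratio 1.21), with windows of 500 bases on each side (1.13) or with scaling to background bins (1.24). It was lower at 0.56 with scaling to the median of all promoters and at 0.65 with the scramble rows thinned. Jarid1b had 16 and 8 reads at Isl1, 4.57-fold (2.61 to 7.42) and 6.39-fold (2.76 to 12.6). Against background of the same GC content these folds were 1.99 and 2.54, and the call was lost. Isl2 (chr9:55386479-55393987, plus strand) had 0 reads in Jarid1b shRNA cells, which allows up to 1.14 RPM, and 1 read in scramble cells at its gene-level start, that of a noncoding transcript. At the start of its coding transcript, 2476 bases downstream, it had 23 reads, or 8.73 RPM, in Jarid1b shRNA cells and 7 reads, or 1.36 RPM, in scramble cells. The log2 ratio of 2.68 (1.42 to 4.15) is the highest of the 10 genes at the starts with the most reads. At that start Isl2 was enriched in the Jarid1b shRNA library alone. Jarid1b was not enriched at that coding start, with 9 and 6 reads (0.865-fold and 1.54-fold). Its reads numbered 9 and 1 at the gene-level start (0.857-fold and 0.217-fold), and 24 and 10 reads at a start 3664 bases downstream (2.64-fold and 2.63-fold).

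**Figure D3:**
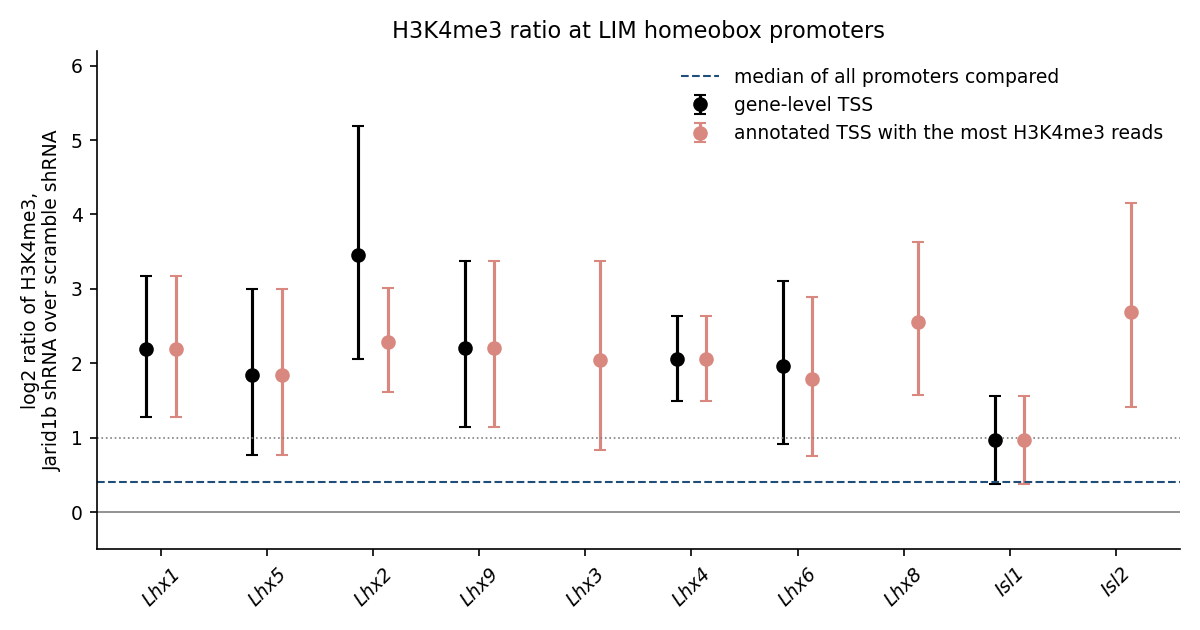
Log2 ratio of H3K4me3, Jarid1b shRNA over scramble cells, for each LIM homeobox gene at the gene-level TSS (black) and at the annotated TSS with the most H3K4me3 reads (pink), with exact 95% intervals for counting error. The dashed line is the median of all promoters compared (0.41), the dotted line is 2-fold, and every plotted point lies above 0. Lhx3, Lhx8 and Isl2 have a point at the second kind of start alone.

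Taken at the annotated start with the most reads, H3K4me3 could be compared at all 10 members and was called higher at 9, all but Isl1, against 23.9% of 14029 promoters chosen in the same way. None was lower, where 2.37% of promoters were. The median log2 ratio was 2.12, with a range of 0.97 to 2.68, against 0.41 over all promoters. Scaled to the median of all promoters, the ratios ranged from 0.56 to 2.27 and the same 9 were called higher, against 12.0% of promoters. All 10 members were enriched in the Jarid1b shRNA library and 8 of 10 in the scramble library, against 63.5% and 63.6%. Lhx9, whose local rate includes a neighbouring peak, and Isl2 were enriched in the Jarid1b shRNA library alone, as were 420 of all 22367 promoters. Their higher calls are thus partly fixed by the enrichment filter. The share among promoters of like level and GC content, 52.8% at gene-level starts, was not computed for these starts. For Jarid1b the start with the most Jarid1b reads was taken, which differed from the H3K4me3 start at Lhx6, Lhx9 and Isl2. There Jarid1b was enriched in both libraries at 9 of 10, all but Lhx1, against 10.6%. At the H3K4me3 starts of Lhx9 (1.93-fold and 1.85-fold) and Isl2 (0.865-fold and 1.54-fold) it was lower than at their Jarid1b starts. With expected reads from background of the same GC content it was 6 of 10, Lhx2, Lhx4, Lhx5, Lhx6, Lhx8 and Lhx9, against 1.43%. In order of level in Jarid1b shRNA cells, Lhx4 (32.2 RPM), Lhx2 (24.7 RPM) and Isl1 (19.4 RPM) stood above the other 7, which lay between 7.21 and 13.7 RPM. The start was chosen by the summed reads, so these levels are partly set by the choice, in the members as in all promoters.

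**Figure D4:**
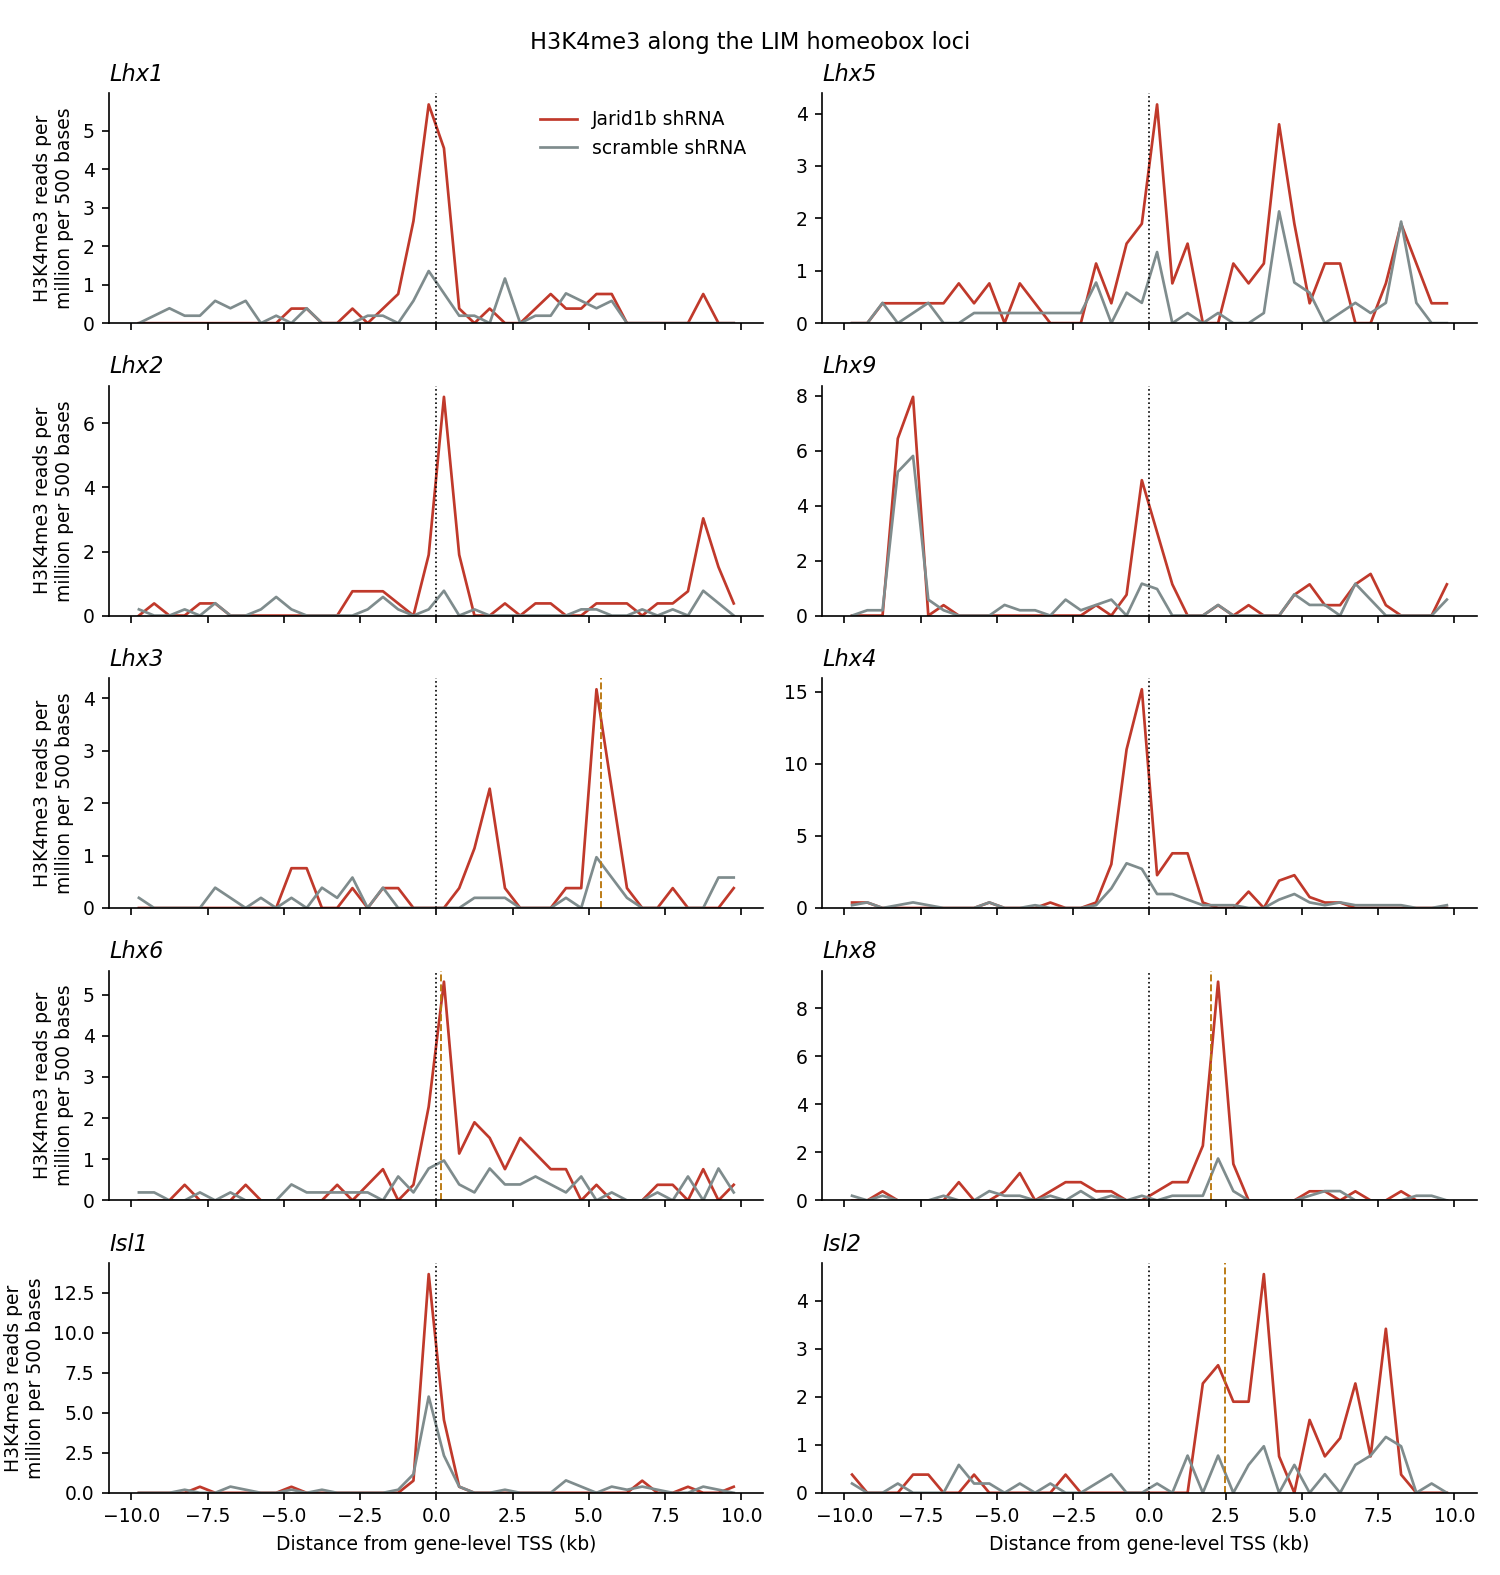
H3K4me3 RPM in 500-base bins from 10 kb before to 10 kb after the gene-level TSS (dotted line) of each LIM homeobox gene, in Jarid1b shRNA cells (red) and scramble cells (grey). A dashed line marks the annotated TSS with the most H3K4me3 reads where it lies elsewhere within 10 kb. At Lhx3, Lhx8 and Isl2 the signal starts downstream of the gene-level TSS, and the peak 8 kb before Lhx9 is at the start of the neighbouring gene 2310009B15Rik.

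Whole loci, taken as the gene body and 2 kb before it, involve no choice of start. They include the promoter reads counted above, so their direction is not independent of the ratios given there. With scaling to total reads, the one computed for loci, the log2 ratio and its interval lay above 0 at all 10 members, from 0.64 at Isl1 (0.10 to 1.17) to 2.15 at Lhx3 (1.23 to 3.13). The members' median was 1.23, against 0.14 over 18079 genes with at least 20 reads, of which 30.7% had an interval above 0. Lhx3 had 34 reads over its locus in Jarid1b shRNA cells and 15 in scramble cells, and Isl2 had 54 and 34 in the same order. Jarid1b over the same loci was highest at Lhx1, Isl2 (5.27-fold and 6.38-fold) and Lhx5, and lowest at Isl1 (1.63-fold and 1.67-fold). The medians over the members, 3.35-fold in library 1 and 3.65-fold in library 2, stand beside 1.54-fold and 1.55-fold over the same 18079 genes.

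The width of the signal was counted in 1 kb bins that passed a one-sided Poisson test against the genome rate (adjusted over all bins at 0.05). Over the 216 kb of the 10 loci, leaving out bins near the starts of other coding genes, 38 bins were enriched for H3K4me3 in Jarid1b shRNA cells and 18 in scramble cells. The Jarid1b libraries had 50 and 25 enriched bins. Of all bins in the genome these shares were 2.08%, 2.51%, 1.14% and 0.226%, in the same order. At Lhx1, Jarid1b was enriched in 7 of 10 bins in library 1, while H3K4me3 was enriched in 2 in Jarid1b shRNA cells and 1 in scramble cells. At Lhx6 the H3K4me3 count was 7 of 26 in Jarid1b shRNA cells and 3 in scramble cells. This was the highest count of the 10 genes in Jarid1b shRNA cells, while in scramble cells Lhx4 had the highest with 4. At Isl1 it was 2 of 14 in both, with no Jarid1b bin in library 2. The number of bins that can pass depends on depth. The fewest reads in an enriched bin were 6 in the Jarid1b shRNA library and 8 in the scramble library. The part of depth in these counts was not tested.

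The coding genes that flank the members were measured for comparison. Of 20 neighbours, 17 could be compared, and 6 were called higher and 0 lower, beside 24.0% and 2.37% of all promoters compared. Their log2 ratios had a median of 0.51 and a range of -0.68 to 1.82, beside a median of 0.41 over all promoters compared. Jarid1b was enriched in both libraries at 3 of the 20, beside 7.97% of all promoters. Closest was 2310009B15Rik, 8.28 kb from Lhx9, with 38 reads in Jarid1b shRNA cells and 62 in scramble cells, a log2 ratio of 0.26 (-0.36 to 0.87). Aatf, 11.9 kb from Lhx1, had 54 reads in Jarid1b shRNA cells and 86 in scramble cells, a log2 ratio of 0.30 (-0.22 to 0.80). Rbm19, the neighbour of Lhx5 on the left, had the lowest ratio (-0.68, -1.15 to -0.24), and Parp8, at 714 kb the farthest neighbour of Isl1, the highest (1.82, 1.27 to 2.38). The difference between members and neighbours was not tested.

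The remaining LIM homeobox genes are Lmx1a and Lmx1b, which specify midbrain dopamine neurons, and both were called higher. Lmx1b, also a determinant of the dorsal limb, had 35 reads in Jarid1b shRNA cells and 4 in scramble cells, a log2 ratio of 4.10 (2.61 to 6.05). Lmx1a had 49 reads in Jarid1b shRNA cells and 19 in scramble cells, a ratio of 2.34 (1.54 to 3.18). Jarid1b was enriched in both libraries at Lmx1a (6.75-fold and 7.98-fold). At Lmx1b it was 2.85-fold and 1.90-fold and passed in library 1 alone.

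Cofactors of these proteins had both called and uncalled promoters at the gene-level starts. Of 10 cofactor genes 7 could be compared and 3 were called higher, 0 lower. Their median log2 ratio was 0.98. Higher were Ssbp3 (2.18, 1.72 to 2.66), whose product stabilises Ldb1, and Lmo1 (1.92, 1.01 to 2.89) and Lmo4 (1.71, 1.20 to 2.22), LIM-only proteins that compete for Ldb1. Ldb1 itself had 152 reads in Jarid1b shRNA cells and 151 in scramble cells, a ratio of 0.98 (0.64 to 1.31) just short of 2-fold. Ssbp2 (0.67), Ssbp4 (0.49) and Rlim (0.48), a ubiquitin ligase that acts on Ldb1, were not called. Ldb2, Lmo2 and Lmo3 had 1 or 2 reads in each H3K4me3 library at this start. Jarid1b was enriched in both libraries at Ldb1 (1.98-fold and 4.35-fold) and Ssbp2 (3.83-fold and 6.43-fold). Of 32 LIM proteins without a homeodomain, which mostly act in the cytoskeleton and adhesion, 29 could be compared and 10 were called higher, 0 lower. Their median was 0.80, and 2 had Jarid1b in both libraries, Prickle1 and Lpp. Prickle1 (1.83, 1.27 to 2.40) and Ablim1 (1.42, 0.70 to 2.15) had the highest ratios, and Crip1 (-0.75, -1.55 to -0.01) and Lima1 (-0.73, -1.23 to -0.26) the lowest.

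Of 15 motor neuron partners and targets, 14 could be compared and 9 were called higher, 0 lower. Their median was 1.86, and 5 had Jarid1b in both libraries. The highest ratios were those of Nkx6-1 (2.52, 1.65 to 3.47) and Neurog2 (2.35, 1.66 to 3.07), patterning and proneural factors, and the lowest those of Epha4 (-0.01) and Ebf1 (0.43). Of 12 pituitary partners 3 could be compared, and all 3 were called higher and had Jarid1b in both libraries, among them Sox3 (1.45, 0.82 to 2.09) and Six6 (1.43, 0.57 to 2.32). Of 6 Dlx genes, homeobox factors of forebrain and branchial arches, 5 could be compared and 4 were called higher, with a median of 1.63. Dlx6 (3.18) and Dlx2 (1.65) had the highest ratios and Dlx3 (0.71) and Dlx4 (1.52) the lowest, and Dlx2, Dlx3 and Dlx6 had Jarid1b in both libraries. Of 9 Pax genes 5 could be compared and 3 were called higher, Pax2 (2.59), Pax7 (2.41) and Pax3 (1.31), with Pax5 (1.11) and Pax8 (-0.03) not called, and 3 had Jarid1b in both libraries. All these ratios are with scaling to total reads, and the counts stand beside the same 24.0% and 7.97% of all promoters. Several lists also had more calls at the starts with the most reads, beside 23.9% and 10.6% of all promoters. There 5 of 8 compared cofactors were called higher, among them Ssbp2 (1.48) and Lmo2 (1.59), with a median of 1.54 and Jarid1b at 4 of 10. Of 8 compared Pax genes 6 were higher, Pax5 (2.31) included, with a median of 2.08 and Jarid1b at 6 of 9. All 5 compared pituitary partners (median 2.37, Jarid1b at 3 of 12) and 5 of 6 Dlx genes (median 1.65, Jarid1b at 4 of 6) were higher. For motor neuron partners and targets it was 9 of 15 (median 1.68, Jarid1b at 7 of 15), and for LIM proteins without a homeodomain 12 of 30 (median 0.81, Jarid1b at 3 of 32). No gene of these lists was called lower there, and differences between the lists were not tested.

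**Figure D5:**
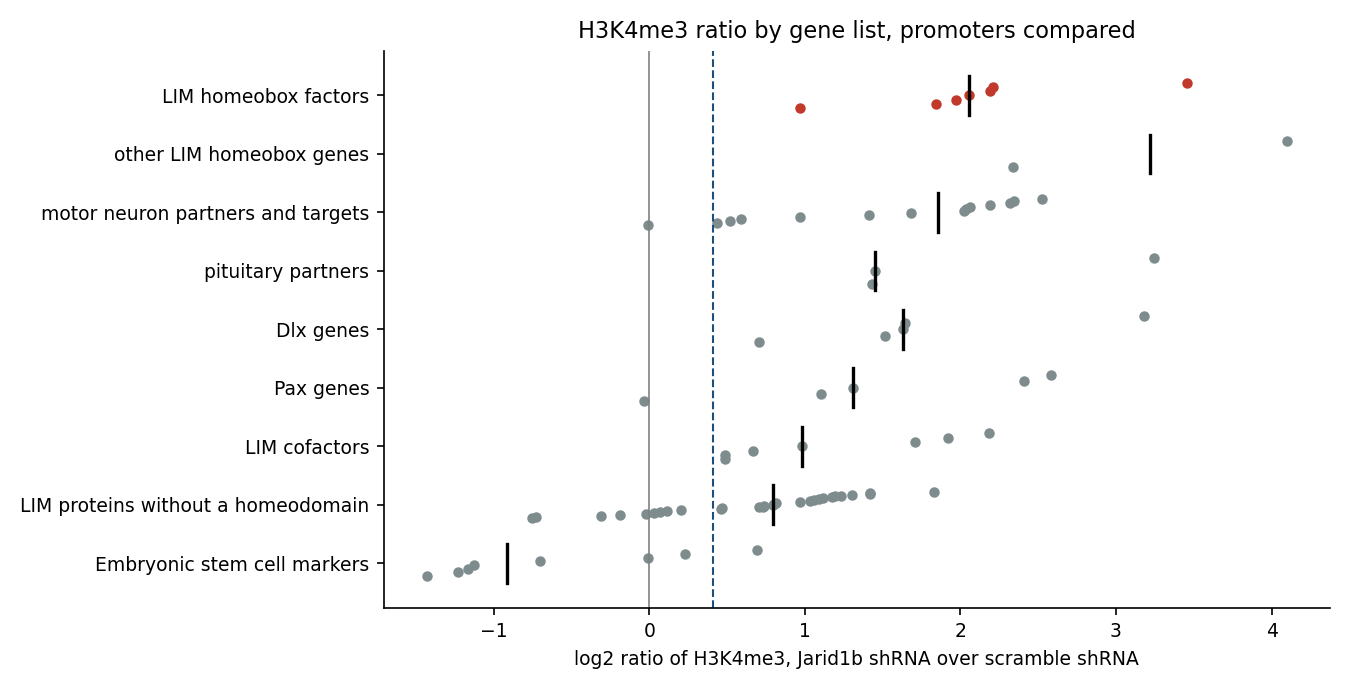
Log2 ratio of H3K4me3, Jarid1b shRNA over scramble cells, at each compared gene-level promoter of the LIM homeobox factors (red) and of other gene lists (grey), with a black bar at each list's median and a dashed line at the median of all promoters compared (0.41). The LIM homeobox factors have a median of 2.06 and stem cell markers one of -0.91.

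The promoters nearest in pattern to the members were found by the Euclidean distance from the members' median in log2(RPM + 0.5) over the 4 libraries. The 5 closest were Dlk1, Flnc, Ddn, Nkx2-2 and Gm628, at distances of 0.0958 to 0.408. Dlk1, an imprinted gene for a membrane protein of the Notch ligand family, had 25 reads in Jarid1b shRNA cells and 11 in scramble cells, and 18 and 9 Jarid1b reads. All 5 were called higher, which their choice by these values largely fixes, and Dlk1, Flnc and Gm628 had Jarid1b in both libraries.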

How the data were processed

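Deposited rows were single aligned reads with chromosome, start, end and strand, and a score of 0 in every row of the deposited files. Per the submitters' processing notes, mapping was to mm9 with Bowtie, in a version not given in the sources used here. Beyond that, the labels' protocols describe 1 match per position, MACS peaks and IgG normalization, none of which the deposited rows carry. Here 1 read was kept per strand and 5′ position on chromosomes 1 to 19, X and Y, its 5′ end was shifted 75 bases, and reads were counted in 2000-base windows. Expected reads came from the genome rate or, where higher, the rate in 10 kb on each side outside the window. Tests were one-sided Poisson with Benjamini-Hochberg adjustment over 22367 windows. Coding sequences were aligned in place of the proteins first planned. Ratios have exact Clopper-Pearson intervals, folds Poisson intervals. Intervals cover counting error only, as they are computed from the counts of single libraries. These reads carry no molecular identifiers. The scripts used Python 3.11.15, numpy 2.4.6, scipy 1.17.1, pandas 2.3.3 and Biopython 1.88, and were tested on simulated counts. The members, the lists and the naming rule (all members, Lmx1a, Lmx1b and cofactors; the 2 highest and 2 lowest ratios of other lists; the 5 nearest promoters) were chosen with earlier results of these data known. Other genes, such as Lpp, Pax3, Kdm5b and neighbours, were named after their values were seen. Some listed genes are not reported here.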

Additional observations from a re-analysis of the deposited data

How the results depend on the processing

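Most alternatives left the counts of members near those reported. With an adjusted p threshold of 0.001, members with Jarid1b enrichment numbered 1, against 1.42% of all promoters. Members with H3K4me3 enrichment in the scramble library then numbered 3, and the share of all promoters was not computed for it. With a background of the same GC content, members with Jarid1b enrichment numbered 3, against 0.908% of all promoters. With windows of 2 kb on each side, H3K4me3 enrichment in the scramble library was called at 3 members, again without a computed share. The 60.0% of all promoters in the main setting is therefore no background for either count. With at least 50 reads, members higher in H3K4me3 numbered 2, since 3 members were then compared, against 23.3% of all promoters compared. When every deposited row was counted, 7 members were higher, against 32.6% of all promoters compared. The members' median log2 ratio was then 2.455, against 0.58 over all promoters compared. With windows of 500 bases or of 2 kb on each side, Jarid1b was enriched at 4 members, against 5.84% and 7.06% of all promoters. Counting in 1 Jarid1b library alone gave 6 (library 2) to 8 (library 1) enriched members, against 10.7% and 26.8% of all promoters. The log2 ratio of each compared member stayed above 0 in all 63 recomputed values, and 62 lay within the original interval; Lhx6 reached 3.42 with the scramble rows thinned. Of 140 recomputed Jarid1b folds, 128 lay within the original interval. Moving minus-strand Jarid1b reads was chosen after seeing the data. So was combining the start with the most reads with GC background (6 members, against 1.43% of all promoters). The same holds for combining that start with median scaling (9 members higher, against 12.0% of promoters compared). No paired analysis was possible because each H3K4me3 condition has 1 library. Depth limits single members: a scramble level rests on 5 to 51 reads at the 7 compared promoters.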
